A study of Mus musculus with 12 samples.

Results

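Txnip, its alpha-arrestin relatives Arrdc1, Arrdc2, Arrdc3 and Arrdc4, and the transcription factor genes Mlx and Mlxip were followed across 2 genotypes and 2 times. These 7 genes, of 19938 with a named probe set on the array, were picked by the gene symbol that the platform annotation gives their probe sets. The choice was made with it known that Txnip was far lower at 30 h than at 18 h in MLL1-KO cells, so that contrast is described for Txnip without a test. Each gene had 1 probe set, so no choice between probe sets was needed, and all 7 passed the filter on dim genes that left 13956 genes for testing. The filter rests on the mean over all arrays and asks nothing of any 1 group.

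The cells were mouse embryonic fibroblasts, connective tissue cells grown out of embryos. The 4 groups were MLL1-KO at 30 h, MLL1-KO at 18 h, WT at 30 h and WT at 18 h, with 3 arrays each. MLL1, encoded by Kmt2a, is a histone H3 lysine methyltransferase of active promoters. All 4 groups were grown in DMEM containing FBS and NCS at 5% each and received a 2 h pulse of medium with 50% horse serum, a shock that sets the circadian clocks of cultured cells to a common phase. WT cells therefore carry the same serum treatment as MLL1-KO cells. The labels give neither the deleted part of the gene, nor the number of cell lines, nor whether replicates were grown apart. Each p-value thus sets a difference against the spread among these arrays, which may be technical, and the number of arrays limits the precision. A difference between the genotypes cannot be told apart from one between cell lines or cultures.

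TXNIP is a scaffold protein of the alpha-arrestin family that binds thioredoxin, a small reducing protein, and that limits glucose uptake by drawing glucose transporters from the cell surface. Alpha-arrestins act as adaptors between membrane proteins and ubiquitin ligases of the NEDD4 family. MondoA, the product of Mlxip, pairs with MLX, senses phosphorylated glucose and activates few genes strongly, of which Txnip and Arrdc4 are the best known. It does so at carbohydrate response elements, which hold a pair of E-box-like sites.

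The promoters of Txnip and Arrdc4 are shown because these genes moved most among the 7 and because MondoA is known to act on both. Each line gives the 250 bases before the transcription start in RefSeq GRCm38.p6, read 5′ to 3′ on the strand of the gene. Capitals mark a match to the letters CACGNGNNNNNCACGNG in Txnip and to the E-box CACGTG in Arrdc4.
Txnip, chr3:96557707-96557956, + strand: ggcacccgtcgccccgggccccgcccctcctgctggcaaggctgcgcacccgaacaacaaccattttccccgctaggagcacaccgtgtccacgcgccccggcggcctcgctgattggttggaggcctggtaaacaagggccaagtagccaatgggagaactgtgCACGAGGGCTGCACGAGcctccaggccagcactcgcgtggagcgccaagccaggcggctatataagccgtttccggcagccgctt
Arrdc4, chr7:68749239-68749488, - strand: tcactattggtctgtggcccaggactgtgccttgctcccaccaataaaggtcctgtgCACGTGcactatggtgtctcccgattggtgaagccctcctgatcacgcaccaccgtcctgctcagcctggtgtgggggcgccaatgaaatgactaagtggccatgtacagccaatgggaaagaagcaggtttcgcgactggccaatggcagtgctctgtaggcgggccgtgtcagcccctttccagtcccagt

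The Txnip match is made of 2 E-box-like sites with a spacer of 5 bases, and its first base lies 85 bases before the start. The search covered both strands of windows reaching from 250 bases before to 50 bases after each start, and 16 of 32851 such windows (0.0487%) held this 17-base pattern. None of the other 6 genes had it in this window, which says nothing of sites elsewhere. The E-box stood in 7.15% of windows, and among the 7 genes it was found 193 bases before the start of Arrdc4 and 40 bases before that of Mlx. The letters CCAAT or their complement, the CCAAT box, were in 37.4% of windows. Arrdc4 had 6 of them, Arrdc2 had 3, Txnip, Mlx and Mlxip had 2 each, Arrdc3 had 1 in 2 of its 3 windows and Arrdc1 had none. A match of letters is a description and was not tested as a binding site.

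The array medians lay between 273.3 and 311.8. Kmt2a read 1338, 1367 and 1584 in MLL1-KO cells at 30 h, 2120.2, 2174 and 1959.7 in MLL1-KO cells at 18 h, 2129, 2155 and 2069 in WT cells at 30 h and 2265, 2824 and 2099.7 in WT cells at 18 h. It fell in MLL1-KO cells at 30 h (log2 difference -0.57, adjusted p = 0.000111) but missed the threshold at 18 h (-0.19, adjusted p = 0.108), and since the deleted part is not given it does not check the genotype. The summed intensity of 13 fibroblast markers ran from 59697 to 63577 and from 60516 to 61903 in MLL1-KO cells at 30 h and 18 h, and from 62382 to 65595 and from 63222 to 67170 in WT cells at 30 h and 18 h. The sum hid large differences between the genotypes, since 4 of 12 tested markers were higher and 7 lower in MLL1-KO cells at 30 h, where 24.3% and 28.6% of all tested genes were. Pdgfra (-2.93 at 30 h and -3.22 at 18 h), Col3a1 (-2.20 and -2.53) and Pdgfrb (-1.85 and -1.63) fell and Dcn (4.33 and 3.74) rose on the log2 scale. The 11 endothelial and epithelial markers lay between 76.8 and 377.6 on every array. For Txnip and Arrdc4, MLL1-KO 18 h replicate 1 lay apart from the other arrays of its group, toward the 30 h arrays. Values of the 7 genes and list counts that this array moved are also given without it. No genotype or time call printed below for a named gene of the lists changed without it.

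Txnip was low in MLL1-KO cells at 30 h and high in the other 3 groups. Its intensity was 778, 697 and 635 in MLL1-KO cells at 30 h, 3111, 7354 and 7169 in MLL1-KO cells at 18 h, 6116, 5817 and 6494 in WT cells at 30 h and 7369.9, 7237 and 7331 in WT cells at 18 h. The 3 MLL1-KO 30 h arrays lay below all 9 others by a wide gap, and the next lowest was MLL1-KO 18 h replicate 1. The group means were 703 ± 71.6, 5878 ± 2398, 6142 ± 339.5 and 7313 ± 68.2 in the same order of groups (SD, n = 3 each). In bulk RNA, fewer cells expressing a gene and less RNA per cell cannot be told apart.

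At 30 h Txnip was 8.58-fold lower in MLL1-KO than in WT cells. All differences here are on the scale of log2(intensity + 16), and adjusted p-values come from limma's moderated test with Benjamini-Hochberg adjustment over the 13956 genes, called under 0.05. The difference was -3.10 (SE 0.215, 95% interval -3.56 to -2.65, adjusted p = 2.15e-09), and all MLL1-KO arrays lay below all WT arrays. It stood 177th among all tested genes ordered from the deepest fall. This comparison shares the MLL1-KO 30 h arrays with the contrast known when Txnip was chosen, so its test is not independent support. At 18 h the difference was -0.42 (-0.87 to 0.04, adjusted p = 0.108), and the arrays of the 2 genotypes overlapped.

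The 18 h value turned on single arrays of the MLL1-KO group. Without MLL1-KO 18 h replicate 1 it was -0.01 (-0.17 to 0.15, adjusted p = 0.922). Without replicate 2 or replicate 3 of that group it was -0.63 (adjusted p = 0.0200) and -0.61 (adjusted p = 0.0230), past the threshold. Replicate 1 lay 1.22 below the mean of the other two on the log2 scale, against a gap of 0.0365 between those 2, and only 6 of the 13956 genes had a lower value of this kind. Its Txnip level had covered a share of 0.364 of the log2 distance between the other two arrays and the 30 h mean.

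Between 30 h and 18 h Txnip differed by -2.94 in MLL1-KO cells, a 7.66-fold lower level at 30 h, and by -0.25 in WT cells. The MLL1-KO value was the second deepest of 13956 genes and belongs to what the gene was chosen on, as does the difference between the 2 time effects, -2.68, so neither carries a test. The WT value did not pass the threshold (adjusted p = 0.596), although all 3 WT 30 h arrays lay below all 3 WT 18 h arrays, as 12.4% of tested genes did. With the spread estimated without MLL1-KO 18 h replicate 1, the same WT difference passed (adjusted p = 0.0376), as it did when only the WT arrays entered the fit (adjusted p = 0.0171). The MLL1-KO time difference was -3.34 without that array.

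**Figure D1:**
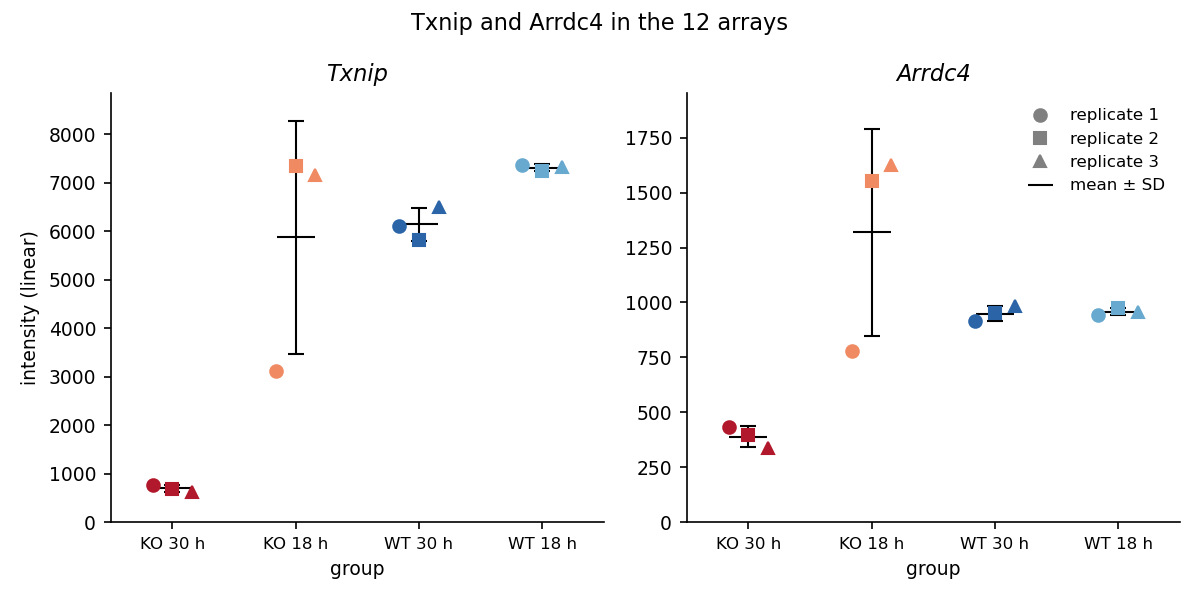
Intensity of Txnip and of Arrdc4 on each of the 12 arrays (linear axes from 0), with MLL1-KO groups left of WT groups, 30 h left of 18 h, a marker shape per replicate and bars for the group mean ± SD. The 3 MLL1-KO 30 h arrays lie lowest for both genes, at 635 to 778 for Txnip and 336 to 431 for Arrdc4, and MLL1-KO 18 h replicate 1 lies between them and the other 2 arrays of its group.

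Arrdc4, which like Txnip lowers glucose uptake and which recruits NEDD4-family ligases, had the pattern closest to that of Txnip among the other 6 genes. Its intensity was 431, 399 and 336 in MLL1-KO cells at 30 h, 778, 1552 and 1625 in MLL1-KO cells at 18 h, 914, 951 and 983 in WT cells at 30 h and 945, 974 and 957 in WT cells at 18 h. The MLL1-KO 30 h arrays were the lowest of all, MLL1-KO 18 h replicates 2 and 3 were the highest, and WT arrays of both times lay close together in between. The group means were 389 ± 48.2, 1318 ± 469, 949 ± 34.2 and 959 ± 14.6 in the same order (SD, n = 3 each).

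Arrdc4 fell at 30 h in MLL1-KO cells on both axes of the design. Against WT cells at 30 h the difference was -1.26 (SE 0.19, interval -1.66 to -0.86, adjusted p = 2.81e-05), a 2.40-fold lower level. Against MLL1-KO cells at 18 h it was -1.66 (interval -2.06 to -1.25, adjusted p = 7.92e-06), a 3.15-fold lower level and the 14th deepest fall of the 13956 genes. In WT cells the 2 times differed by -0.01 (adjusted p = 0.979). The difference between the 2 time effects was -1.64 (interval -2.21 to -1.07, adjusted p = 0.000781).

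At 18 h the Arrdc4 value in MLL1-KO cells against WT cells was 0.38 (interval -0.02 to 0.78, adjusted p = 0.0974). Without MLL1-KO 18 h replicate 1 it was 0.72 (interval 0.52 to 0.92, adjusted p = 5.51e-06), with 2 arrays left in that group. It also passed with array weights (0.66, adjusted p = 1.71e-05). These were the only 2 of 26 alternatives in which it passed. With arrays left out in turn the value ran from 0.20 to 0.72, and the highest adjusted p of the alternatives was 0.41. MLL1-KO 18 h replicate 1 lay 1.01 below the mean of the other 2 arrays of its group, against a gap of 0.0661 between those. It so covered a share of 0.509 of the distance to the 30 h mean. The 30 h difference from WT cells holds no 18 h array, so leaving out this array could not change its value of -1.26. Only the estimated spread became smaller (adjusted p = 2.33e-09). Without this array the fall against MLL1-KO cells at 18 h was -1.99 (adjusted p = 1.93e-09). The difference of time effects was then -1.98 (adjusted p = 1.56e-07). The remaining 5 genes differed between replicate 1 and the other two by -0.10 to 0.08, and none of their calls changed without it. Their 18 h differences from WT were then 0.57 for Arrdc1, 0.35 for Arrdc2, -0.43 for Arrdc3, -0.55 for Mlx and -0.37 for Mlxip, and their time differences in MLL1-KO cells were -0.40, -0.30, -0.02, 0.14 and 0.10 in that order.

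Cd68, 1 of 7 macrophage and blood cell markers, also moved with time in MLL1-KO cells. It read 897, 832 and 685 in MLL1-KO cells at 30 h, 1315, 2635 and 2964 in MLL1-KO cells at 18 h, 806 to 1054 in WT cells at 30 h and 1122 to 1214 in WT cells at 18 h. The summed level of the 7 markers was 1851 to 2006 and 2336 to 3997 in MLL1-KO cells at 30 h and 18 h, and 1838 to 1990 and 2124 to 2191 in WT cells at 30 h and 18 h. Cd68 was lower at 30 h than at 18 h in MLL1-KO cells (-1.42, adjusted p = 6.33e-05, and -1.78 without replicate 1, adjusted p = 2.81e-08). The other 6 markers lay between 27.4 and 327 on every array, and among them Cd14 moved the other way in MLL1-KO cells (0.55, adjusted p = 0.00135). Kdr, an endothelial marker that missed the filter, read 114 to 149 in MLL1-KO cells at 30 h, 224, 344 and 302 in MLL1-KO cells at 18 h and 76.8 to 103 in WT cells. The part of such cells in the Txnip and Arrdc4 values was not tested.

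Arrdc1 was higher in MLL1-KO cells at both times and Arrdc2 at 18 h, whereas Arrdc3 was lower at both times. Arrdc1, an alpha-arrestin that recruits TSG101 to bud vesicles from the plasma membrane, read 605, 604 and 519.95 in MLL1-KO cells at 30 h, 721, 724 and 809 in MLL1-KO cells at 18 h, 459, 501 and 489 in WT cells at 30 h and 510.3, 509.98 and 506 in WT cells at 18 h. All MLL1-KO arrays lay above all WT arrays of the same time. It rose in MLL1-KO cells by 0.24 at 30 h (adjusted p = 0.0245) and by 0.55 at 18 h (interval 0.36 to 0.73, adjusted p = 3.43e-05). The call at 30 h ended, each time at 0.21, without WT 30 h replicate 1 (adjusted p = 0.0850), without MLL1-KO 30 h replicate 1 (0.0893) and without MLL1-KO 30 h replicate 2 (0.0993).

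Arrdc1 fell between the times in MLL1-KO cells, being lower by 0.38 at 30 h than at 18 h (adjusted p = 0.00243), where in WT cells the difference was -0.07 (adjusted p = 0.719). The difference between the 2 time effects, -0.30, missed the threshold (adjusted p = 0.0929). It passed with quantile scaling (-0.36, adjusted p = 0.0431) and with array weights (-0.24, adjusted p = 0.0481).

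Arrdc2 read 385, 359 and 395 in MLL1-KO cells at 30 h, 458, 464 and 477 in MLL1-KO cells at 18 h, 319, 405 and 365 in WT cells at 30 h and 336, 377 and 389 in WT cells at 18 h. Only the MLL1-KO 18 h arrays stood clear of the rest. Against WT cells it rose by 0.33 at 18 h (interval 0.13 to 0.54, adjusted p = 0.00629), and at 30 h the difference was 0.07 (interval -0.14 to 0.27, adjusted p = 0.588). It fell between the times in MLL1-KO cells (-0.29, adjusted p = 0.0259), a call that ended without MLL1-KO 18 h replicate 2 (-0.29, adjusted p = 0.0640) or 3 (-0.27, 0.0747) and without MLL1-KO 30 h replicate 1 (-0.30, 0.0501) or 2 (-0.25, 0.102).

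Arrdc3, known for directing the beta-2 adrenergic receptor and other surface proteins to endosomes, read 1687, 1810.3 and 1763 in MLL1-KO cells at 30 h, 1860.4, 1884 and 1673 in MLL1-KO cells at 18 h, 2115, 2166 and 2149 in WT cells at 30 h and 2335, 2637 and 2236 in WT cells at 18 h. Every MLL1-KO array was lower than every WT array, and the 2 times overlapped in MLL1-KO cells. It fell in MLL1-KO cells by 0.29 at 30 h (interval -0.45 to -0.13, adjusted p = 0.00387) and by 0.41 at 18 h (interval -0.57 to -0.25, adjusted p = 0.000168). Between 30 h and 18 h it differed by -0.04 in MLL1-KO cells (adjusted p = 0.734) and by -0.16 in WT cells (adjusted p = 0.271).

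**Figure D2:**
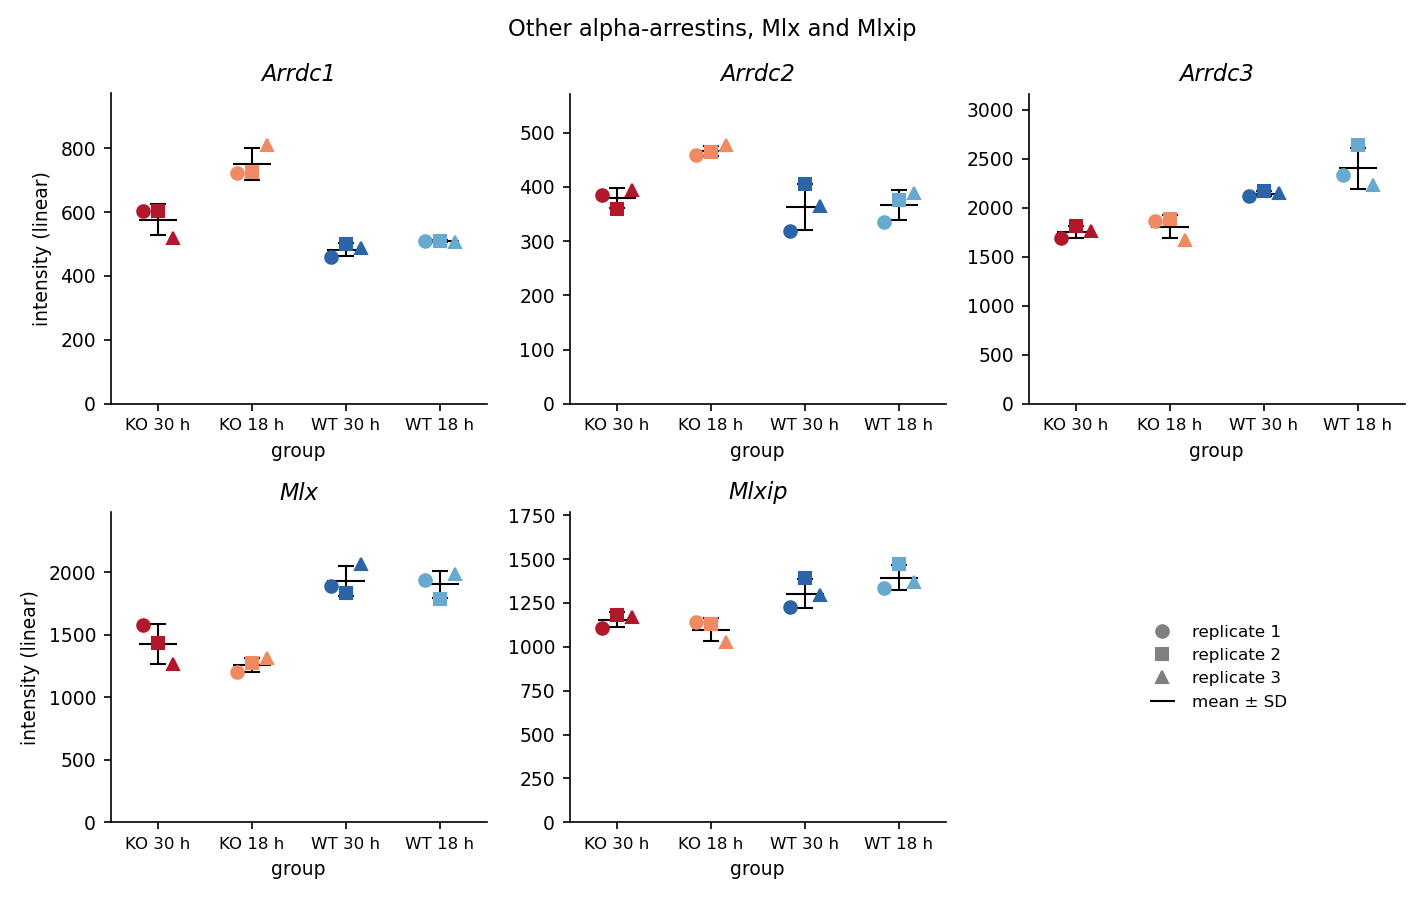
Intensity of Arrdc1, Arrdc2, Arrdc3, Mlx and Mlxip on each of the 12 arrays (linear axes from 0), MLL1-KO groups left of WT groups, with a marker shape per replicate and bars for the group mean ± SD. Arrdc1 lies higher in MLL1-KO than in WT cells at both times, while Arrdc3, Mlx and Mlxip lie lower with no overlap between genotypes of the same time.

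The genes of the sensor itself were modestly lower in MLL1-KO cells and, in the fit over all arrays at equal weight, did not pass the threshold for time. Mlx, the partner that MondoA needs to bind DNA, read 1580, 1435 and 1264 in MLL1-KO cells at 30 h, 1201, 1269.8 and 1310 in MLL1-KO cells at 18 h, 1892, 1835 and 2067 in WT cells at 30 h and 1936, 1782 and 1988 in WT cells at 18 h. It fell by 0.44 at 30 h (interval -0.62 to -0.25, adjusted p = 0.000395) and by 0.59 at 18 h (interval -0.77 to -0.40, adjusted p = 1.6e-05). No MLL1-KO array reached the lowest WT array. Its 30 h minus 18 h difference in MLL1-KO cells was 0.17 (adjusted p = 0.133), and it passed without MLL1-KO 30 h replicate 3 (0.25, adjusted p = 0.0313) and with array weights (0.18, adjusted p = 0.00709).

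Mlxip, which encodes MondoA, read 1105, 1184 and 1173 in MLL1-KO cells at 30 h, 1142, 1128 and 1026 in MLL1-KO cells at 18 h, 1225, 1391 and 1293 in WT cells at 30 h and 1336, 1473 and 1369.8 in WT cells at 18 h. The genotypes did not overlap at either time. It fell at 18 h by 0.34 (interval -0.50 to -0.17, adjusted p = 0.00121), and at 30 h the difference of -0.17 (interval -0.34 to -0.01) missed the threshold after adjustment (adjusted p = 0.0769), though it passed with array weights (-0.18, adjusted p = 0.0104). Its time difference was 0.07 in MLL1-KO cells (adjusted p = 0.531) and -0.10 in WT cells (adjusted p = 0.573).

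The share of the 7 genes called for genotype was near that of all tested genes. Txnip is among the 7, and its low MLL1-KO 30 h arrays were known when it was chosen. The counts at 30 h and averaged over the times use those arrays and are not independent support. At 30 h 5 of 7 were called (Arrdc1 higher and Txnip, Arrdc4, Arrdc3 and Mlx lower), where 52.9% of all tested genes were (24.3% higher and 28.6% lower). At 18 h 5 of 7 were called (Arrdc1 and Arrdc2 higher and Arrdc3, Mlx and Mlxip lower), where 60.1% were (26.3% higher and 33.8% lower). The median difference of the 7 was -0.29 at 30 h and -0.34 at 18 h, and that of all tested genes was 0.02 and -0.03 at these times. Arrays of the genotypes did not overlap for 6 of the 7 at 30 h, 1 higher and 5 lower, where this held for 61.5% of tested genes (28.7% higher and 32.8% lower). At 18 h this was so for 5, 2 higher and 3 lower, against 63.1% of tested genes (28% higher and 35.2% lower). Averaged over both times all 7 were called, 2 higher and 5 lower, where 65.2% of tested genes were (29.4% higher and 35.8% lower). Arrdc4 is among the 5 lower, but its difference was -1.26 at 30 h and 0.38 at 18 h, so its average of -0.44 describes neither time.

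For time, 3 of the 6 genes other than Txnip fell in MLL1-KO cells and none rose, where 39.3% of tested genes were called, 18.4% lower and 20.9% higher. In WT cells limma called 0 of the 7, where 3.96% of tested genes were called, and 1 of them, Arrdc3, had an unadjusted p under 0.05. Txnip was also called there without MLL1-KO 18 h replicate 1, as above, with 7.42% of genes called in that fit. The difference of the time effects was called for 1 of 6, Arrdc4, in the negative direction, where 20.3% of tested genes were called and 10.1% in that direction. These comparisons share arrays, so their values are given side by side and not as independent results.

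**Figure D3:**
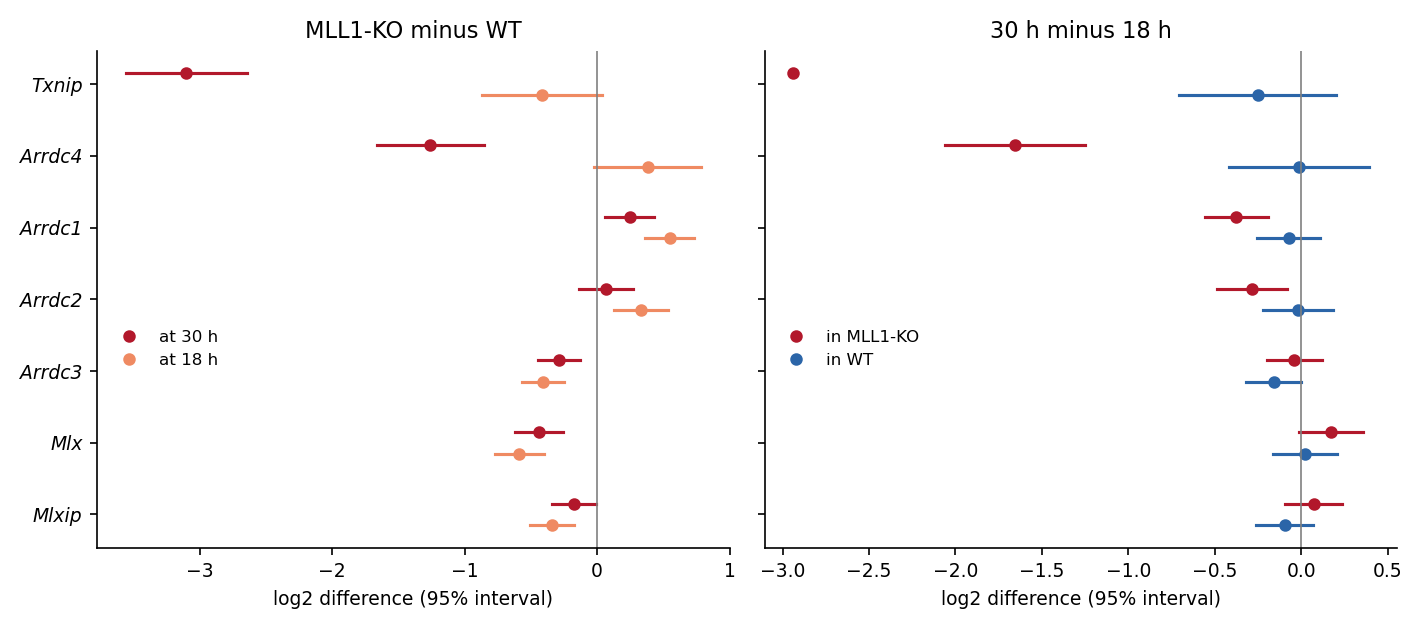
Log2 differences of the 7 genes with 95% intervals for MLL1-KO minus WT at 30 h and at 18 h (left) and for 30 h minus 18 h in each genotype (right), where Txnip in MLL1-KO cells is a point alone because it carries no test. Txnip (-3.10) and Arrdc4 (-1.26) have the most negative values against WT at 30 h, and their WT time differences (-0.25 and -0.01) have intervals that include 0.

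Over the 12 arrays, Arrdc4 had a Pearson correlation of 0.930 with Txnip (Spearman 0.755) and stood 130th among tested genes by this measure. The value was 0.615 for Arrdc3, 0.449 for Mlx, 0.396 for Mlxip, 0.0799 for Arrdc2 and -0.0752 for Arrdc1. These are descriptions without a test, since the 12 points fall into 4 groups and a gene that is low in 1 group alone scores high. There were 252 other genes over 0.9.

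The 5 genes most like Txnip by Pearson correlation of log2 values over the 12 arrays were Klf11 (0.987), Cox14 (0.987), Crebrf (0.985), Bcl6 (0.985) and Prr13 (0.985), with Spearman values of 0.699 to 0.867. Klf11 encodes a Krüppel-like transcription factor, Cox14 a factor for assembly of cytochrome c oxidase, Crebrf a regulator of CREB3 proteins and Bcl6 a zinc finger repressor. Crebrf read 316, 325 and 329 in MLL1-KO cells at 30 h, 657, 1109 and 1110.1 in MLL1-KO cells at 18 h, 939.5, 1085.5 and 945 in WT cells at 30 h and 1246, 1356 and 1288 in WT cells at 18 h. Bcl6 read 876, 839 and 808 in MLL1-KO cells at 30 h, 1200.1, 1876 and 1709 in MLL1-KO cells at 18 h, 1505, 1624 and 1612 in WT cells at 30 h and 1573, 1785 and 1709.0 in WT cells at 18 h. All 5 were lowest on the 3 MLL1-KO 30 h arrays, with MLL1-KO 18 h replicate 1 the lowest of its group. Without that array 4 of the 5 stayed among the nearest 5, and Crebrf moved to 8th.

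**Figure D4:**
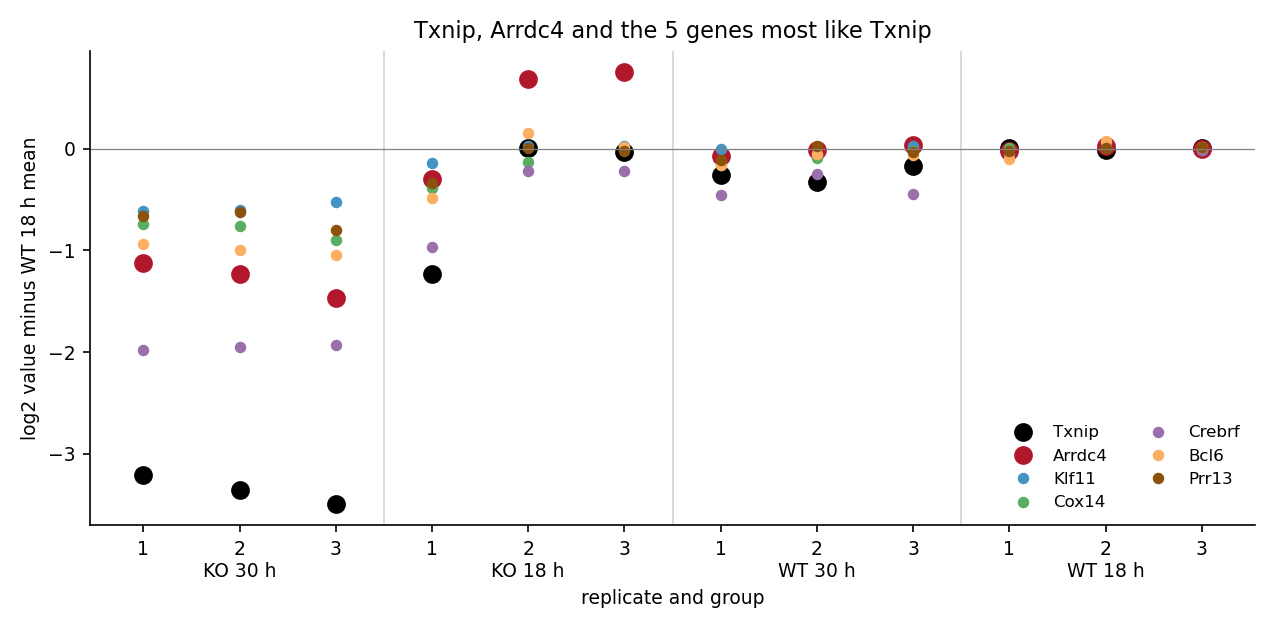
Log2 value minus the mean of the WT 18 h arrays for Txnip, Arrdc4 and the 5 genes most correlated with Txnip, 1 point per array, with MLL1-KO groups left of WT groups. All of these genes have their 3 lowest arrays in MLL1-KO cells at 30 h, and Arrdc4 lies highest on MLL1-KO 18 h replicates 2 and 3.

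Genes around the 7 were read from 8 lists by function, and their counts can be set against all tested genes, of which 24.3% were higher and 28.6% lower in MLL1-KO cells at 30 h, and 26.3% higher and 33.8% lower at 18 h. The other alpha- and beta-arrestin genes were mixed. Of 7 tested, 3 were higher and 2 lower in MLL1-KO cells at 30 h, and 2 higher and 3 lower at 18 h. Arrb2, a beta-arrestin that uncouples receptors from G proteins, averaged 1055 ± 90.1 and 1448 ± 95.1 in MLL1-KO cells at 30 h and 18 h, against 668 ± 85.4 and 655.8 ± 53.3 in WT cells at 30 h and 18 h (SD, n = 3 each), a rise of 0.89 averaged over the times (adjusted p = 8.79e-09). Vps26c, an arrestin-fold subunit of the retriever complex, fell by 0.52 (adjusted p = 1.36e-06).

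Among 10 tested partners in the MLX and MAX network, 2 were higher and 5 lower in MLL1-KO cells at 30 h, with 2 higher and 4 lower at 18 h (3 and 4 without MLL1-KO 18 h replicate 1). Mxd4, a MAX-binding repressor that also pairs with MLX, averaged 343 ± 59.5 and 531 ± 65.6 in MLL1-KO cells at 30 h and 18 h, against 1702 ± 47.3 and 1780 ± 126 in WT cells at 30 h and 18 h, a fall of 2.00 averaged over the times (adjusted p = 7.04e-13). Mxi1, another MAX-binding repressor, rose by 1.27 (adjusted p = 1.96e-12). Mlxipl, which encodes ChREBP, the relative of MondoA in liver and fat, was dim at 216 ± 27.6 in MLL1-KO cells and 195 ± 11.2 in WT cells at 30 h and was not called at either time.

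In the thioredoxin system, 1 of 10 tested genes was higher and 3 were lower in MLL1-KO cells at 30 h, with 2 higher and 5 lower at 18 h. Without MLL1-KO 18 h replicate 1 these were 1 and 4 at 30 h and 2 and 4 at 18 h. Txn1, the thioredoxin that TXNIP binds, differed between genotypes by 0.02 at 30 h (adjusted p = 0.749) and by -0.09 at 18 h (adjusted p = 0.0786). Srxn1, which encodes sulfiredoxin, fell by 0.67 averaged over the times (adjusted p = 1.6e-08), and Txnrd3, a thioredoxin reductase, rose by 0.91 (adjusted p = 4.81e-09). No gene of this list was called between the times in WT cells, where 3.96% of all tested genes were.

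Glucose uptake and phosphorylation genes went both ways, with 3 of 12 tested higher and 4 lower in MLL1-KO cells at 30 h and 4 higher and 3 lower at 18 h. Without MLL1-KO 18 h replicate 1, 4 were higher and 4 lower at each time. Slc2a1, which encodes the glucose transporter GLUT1, averaged 9472 ± 403 and 9277 ± 743 in MLL1-KO cells at 30 h and 18 h, against 4686 ± 307 and 5039 ± 374 in WT cells at 30 h and 18 h. It rose by 1.01 at 30 h (adjusted p = 2.05e-09) and by 0.88 at 18 h (adjusted p = 1.09e-08; 0.81 without MLL1-KO 18 h replicate 1), while its time difference in MLL1-KO cells was 0.03 (adjusted p = 0.778). Hk2, the hexokinase that phosphorylates glucose, averaged 2715 ± 89.9 and 2690 ± 311 in MLL1-KO cells at 30 h and 18 h, against 791 ± 131 and 942 ± 61.7 in WT cells, a rise of 1.63 averaged over the times (adjusted p = 4.81e-12).

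In the same list Slc2a9, which encodes a urate and sugar transporter, averaged 115.5 ± 13.9 and 92.2 ± 14.5 in MLL1-KO cells at 30 h and 18 h, against 1107 ± 28.2 and 1024 ± 41.7 in WT cells at 30 h and 18 h. Its MLL1-KO levels lie under the filter intensity of 175 and it passed the filter through WT cells, so the size of its fall depends on the offset and ran from -3.36 to -2.76 over the alternatives. Pfkfb3, which makes the glycolysis activator fructose 2,6-bisphosphate, fell by 2.36 at 30 h (adjusted p = 3.62e-13) and by 1.46 at 18 h (adjusted p = 1.99e-10). Its means were 247 ± 23.6 and 492 ± 22.4 in MLL1-KO cells at 30 h and 18 h and 1336 ± 52.3 and 1377 ± 68.1 in WT cells at 30 h and 18 h. The other Pfkfb genes tested went both ways. Pfkfb4 differed from WT by 0.70 at 30 h and 0.50 at 18 h, and Pfkfb2 by -0.95 and -1.01.

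Other genes known to carry carbohydrate response elements in liver went both ways. Of 11 tested, 3 were higher and 1 lower in MLL1-KO cells at 30 h, and 3 higher and 3 lower at 18 h. Without MLL1-KO 18 h replicate 1 3 were higher and 3 lower at 30 h, with 4 higher and 4 lower at 18 h. The list median at 30 h was 0.06, beside 0.02 for all tested genes. Rgs16, a brake on G protein signalling, averaged 1905 ± 148 and 6111 ± 1444 in MLL1-KO cells at 30 h and 18 h, against 230.3 ± 11.0 and 226 ± 17.5 in WT cells, and so rose by 3.80 averaged over the times (adjusted p = 1.18e-15; 3.90 without MLL1-KO 18 h replicate 1). Me1, the cytosolic malic enzyme, fell by 0.69 (adjusted p = 2.16e-10). Among the 8 tested genes other than Txnip whose promoter window held the 17-base pattern shown above, 2 were higher and 2 lower at 30 h, with a lowest difference of -0.32. For 30 h against 18 h in MLL1-KO cells, 4 of these 8 fell and none rose, where 18.4% of all tested genes fell and 20.9% rose, with a lowest difference of -0.69 (-0.79 without MLL1-KO 18 h replicate 1). In the same comparison the 11 list genes were mixed, as 4 fell and 3 rose. Their median was -0.01, beside 0.02 for all tested genes.

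Of 9 tested genes for NEDD4-family ligases and their partners, 4 were higher and 1 lower in MLL1-KO cells at 30 h, and 3 higher and 2 lower at 18 h. Nedd4l rose by 1.04 averaged over the times (adjusted p = 2.41e-11) and Smurf2 fell by 0.28 (adjusted p = 0.000108). Itch, the ligase known to mark TXNIP for degradation, fell by 0.23 at 18 h (adjusted p = 0.0176), and at 30 h the difference was -0.11 (adjusted p = 0.232).

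Energy-sensing genes went both ways, with 4 higher and 5 lower of 10 at 30 h and 5 higher and 4 lower at 18 h. Prkaa1, a catalytic subunit of AMPK, the kinase that phosphorylates TXNIP, fell by 0.39 at 30 h (adjusted p = 4.91e-05) and by 0.55 at 18 h (adjusted p = 7.51e-07). Prkaa2, the other catalytic subunit, rose by 0.55 at 18 h (adjusted p = 0.000202), and its difference at 30 h was -0.21 (adjusted p = 0.0983). Ppargc1a, a coactivator of mitochondrial genes, rose by 0.87 averaged over the times (adjusted p = 2.8e-08), and Sirt1, a deacetylase, fell by 0.62 (adjusted p = 4.69e-08).

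The FOXO and glucocorticoid list, made of factors and of targets of FOXO factors or of glucocorticoids, held 15 tested genes. Between 30 h and 18 h in MLL1-KO cells 11 of them were lower and 2 higher, where 18.4% of all tested genes were lower and 20.9% higher, and its median difference was -0.32. In WT cells 3 were lower and none higher, where 3.96% of tested genes were called in either direction, with a median of -0.15. Against WT cells at 30 h, 3 were higher and 7 lower (24.3% and 28.6% of all tested genes). Without MLL1-KO 18 h replicate 1 the MLL1-KO time counts were 10 lower and 2 higher, where 42.8% of all tested genes were called. The WT time count was then 4 lower, where 7.42% were called. The counts against WT at 30 h were 3 higher and 8 lower, where 55.8% were called. Bcl6, named above for its likeness to Txnip, is 1 of the 15. The remaining lists went both ways between 30 h and 18 h in MLL1-KO cells. Lower and higher were 2 and 1 of 7 other arrestins, 2 and 1 of 10 MLX and MAX partners, and 2 and 3 of 10 thioredoxin genes. Glucose uptake had 2 and 2 of 12, NEDD4-family ligases 1 and 1 of 9, and energy sensing 4 and 2 of 10. Foxo1, a factor gene picked for naming after its values were seen, averaged 1189 ± 100.2 and 1874 ± 68.0 in MLL1-KO cells at 30 h and 18 h, against 1374 ± 60.7 and 1796 ± 163 in WT cells at 30 h and 18 h. It was lower at 30 h by 0.65 in MLL1-KO cells (adjusted p = 2.14e-05) and by 0.38 in WT cells (adjusted p = 0.0194), and the difference of the 2 time effects, -0.27, did not pass (adjusted p = 0.121). Sgk1, a kinase gene induced by glucocorticoids, rose by 1.39 in MLL1-KO cells averaged over the times (adjusted p = 8.47e-12), and Sesn1, a sestrin, fell by 0.97 (adjusted p = 9.67e-11).

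**Figure D5:**
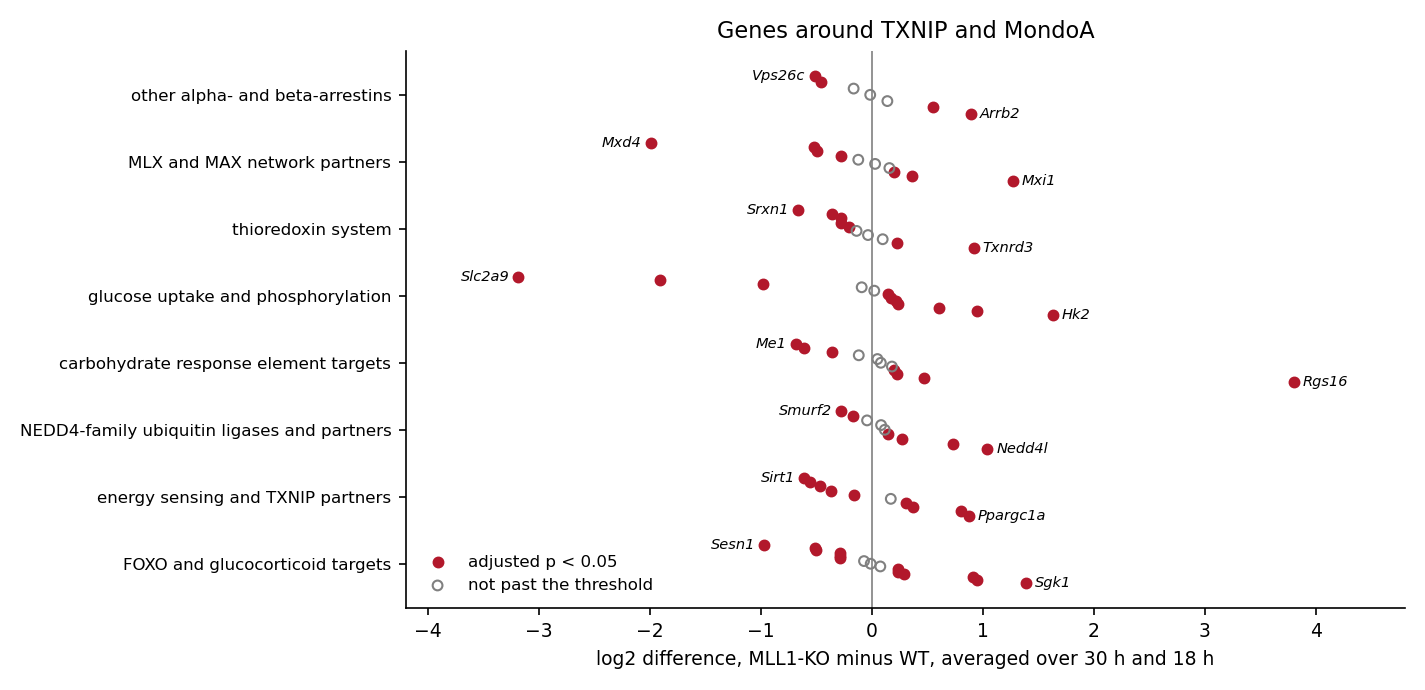
Log2 difference, MLL1-KO minus WT averaged over 30 h and 18 h, of every tested gene in the 8 lists, 1 point per gene, filled where the adjusted p passed the threshold. Called genes lie on both sides of 0 in each list, and the most positive is Rgs16 at 3.80. The most negative point, Slc2a9, is dim in MLL1-KO cells and its place depends on the offset.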

How the data were processed

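Total RNA of the 12 fibroblast samples, 100 ng each, was measured on 1 Affymetrix array per sample. The deposited values are one linear intensity per probe set. The submitters' processing notes name PLIER 2.0 together with Affymetrix Expression Console 1.1 as the authors' tools, and how arrays were scaled to each other is unstated in the labels. Of 35557 probe sets, 21789 had 1 symbol in the platform annotation, 1621 several and 12147 none, and names were updated through RefSeq (GRCm38.p6) for the 21698 matched by Entrez number. Genes with several probe sets were represented by the one of highest mean. Sums over marker genes add intensities of different probe sets and are compared between groups only.

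Groups follow the sample titles, and no pair of arrays shared more than 0.00844% of exactly equal values. The offset before the log was 16, and genes under the 30th percentile of mean (log2 7.58, an intensity of 175) were left out. limma 3.58.1 in R 4.3.3 fitted the 4 group means over all 12 arrays (8 residual and 7.98 prior degrees of freedom), with eBayes and an intensity trend, two-sided. Motifs were searched with Python 3.11.15.

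The 7 genes and the lists were chosen with earlier results of these data known, so their tests are not independent support. Named genes were the 7, the called gene of largest rise and of largest fall of each list in the averaged genotype effect, genes needed for a role, and the 5 nearest to Txnip by correlation. Tried as alternatives were no filter, a filter at the 50th percentile, offsets of 1 and 64, 3 scalings (cyclic loess, quantile, equal medians), eBayes without the trend or robust, array weights, fewer arrays in the fit, other probe set rules, a replicate block and leaving out each array.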

Additional observations from a re-analysis of the deposited data

Results flagged for a closer look

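These genes differed between the genotypes in how 30 h compared with 18 h, by limma's test of the difference of the time effects (MLL1-KO minus WT, log2, adjusted over all tested genes). Among the 7 genes this held for Arrdc4 (-1.64, adjusted p = 0.000781). Among the other genes named it held for Rgs16 (-1.67, adjusted p = 5.22e-05), Ppargc1a (-0.90, adjusted p = 0.00101), Mxd4 (-0.55, adjusted p = 0.0240), Arrb2 (-0.47, adjusted p = 0.0285), Vps26c (-0.44, adjusted p = 0.0198) and Me1 (-0.26, adjusted p = 0.0404), whose time effect was more negative in MLL1-KO cells. It was more positive for Sesn1 (0.61, adjusted p = 0.00160), Sirt1 (0.44, adjusted p = 0.0123) and Mxi1 (0.35, adjusted p = 0.0349). Over all tested genes 20.3% were called in this comparison. The calls of Arrdc4, Rgs16, Ppargc1a, Sesn1 and Sirt1 held under all 25 alternatives. Those of Me1, Mxi1, Arrb2, Mxd4 and Vps26c ended in 13, 9, 8, 8 and 3 of the 25, most of them fits that left out 1 array, and their highest adjusted p was 0.0944, 0.102, 0.0839, 0.0653 and 0.0611 in that order. The values themselves stayed at -0.30 to -0.24 for Me1, 0.30 to 0.48 for Mxi1, -0.56 to -0.38 for Arrb2, -0.67 to -0.44 for Mxd4 and -0.51 to -0.36 for Vps26c.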

How the results depend on the processing

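The low Txnip level in MLL1-KO cells at 30 h, known in part when the gene was chosen, kept its direction and its call under all 26 alternatives. It was at -3.17 to -3.02 against WT. Of 1053 recomputed values for the 7 genes, 1019 counted as unchanged. Tested values did so if they kept their direction and their side of the threshold. The untested Txnip values did so if they kept their direction and lay within the residual SD of Txnip from the reported value. The causes of the other changes were not tested. Txnip against WT at 18 h ranged from -0.629 to -0.0102 when arrays were left out in turn. Its WT time difference, -0.29 to -0.21 over the same fits, passed at -0.25 with only the arrays compared (adjusted p = 0.0171), which made the count of WT time calls 1, against 0 to 1 with arrays left out. Txnip's MLL1-KO time difference was -3.31 with array weights and -3.34 to -2.72 with arrays left out, and its difference of time effects -3.09 to -2.47. Genes other than Txnip with a called difference of time effects numbered 2 with quantile scaling (Arrdc1 joined Arrdc4) and 3 with array weights (Arrdc1 and Arrdc2 joined it). Among the 7 genes, signs turned only for small values far from the threshold. For WT time these were Arrdc2 (0.0021 with equal medians, 0.0034 with cyclic loess, 0.0747 with array weights, -0.0974 to 0.0665 with arrays left out), Arrdc4 (0.0077 with equal medians, -0.0388 to 0.0123 with arrays left out) and Mlx (-0.0014 with cyclic loess, -0.0279 to 0.0570 with arrays left out). For Arrdc2 against WT at 30 h the value was -0.0441 with array weights and -0.0183 to 0.146 with arrays left out. Over all genes, WT time calls numbered 553 in the reported fit and 158 to 1742 in the alternatives. Of the reported ones 60.9% were higher at 30 h, against 50.1% with cyclic loess. MLL1-KO time calls numbered 5484 in the reported fit and ran from 4278, without MLL1-KO 18 h replicate 2, to 8722, with array weights. Calls for the difference of time effects numbered 2838 and 1899 to 5844. With the replicate number as a block, Txnip was at -3.10 against WT at 30 h, again past the threshold, and at -0.42 at 18 h, again short of it, and no count of called genes among the 7 changed. Deviations from the group means correlated at -0.456 to 0.454 between same-numbered arrays of different groups, over 0.1 in 4 of 18 pairs. Replicate 2 of WT 18 h correlated with replicate 2 of WT 30 h (0.454) and of MLL1-KO 30 h (0.330), and these last correlated at 0.343. This check cannot decide whether the numbers pair the samples, since the 3 deviations of a group sum to 0.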
